A study of Mus musculus with 3 samples.

Results

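Integrin subunits were described here through 10 genes, the alpha subunits Itga1, Itga3, Itga4, Itga5, Itga6, Itga7 and Itgav and the beta subunits Itgb1, Itgb3 and Itgb5, out of 18350 named genes on the array. Every non-control probe whose accession belongs to 1 of these genes was taken, which gave 18 probes. Integrins are transmembrane receptors made of 1 alpha and 1 beta subunit. They bind extracellular matrix or proteins on neighbouring cells and link them, through talin, kindlin and other adaptors, to the actin cytoskeleton. Itgb1 is the shared partner of all 7 alpha subunits in the list, whereas Itgb3 and Itgb5 pair with Itgav. In skeletal muscle, Itga7 with Itgb1 is the main laminin-binding integrin of the fibre membrane, and Itga7 is induced when myoblasts differentiate.

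The series holds 1 array for each of 3 cultures of C2C12, a line of mouse myoblasts that fuse into myotubes. The neurogenic cellulates had been myotubes, then cellulates given BIO (a GSK-3 inhibitor) for 2 days, and then cells in neurogenic medium for 7 days. On laminin-coated dishes they received 250 nM reversine for 48 h, then 1.5 µM all-trans retinoic acid in DMEM/F12 with N2 supplement. The BIO cellulates were collected after the BIO step, which began 24 h after myoseverin. Both cellulates came from myotubes formed from myoblasts by 8 days of culture in 2% horse serum. AraC at 10 µM was present between days 2 and 4 to kill unfused myoblasts, and the myotubes were then broken up with myoseverin, a microtubule-binding compound, for 48 h. The third culture was untreated C2C12 myoblasts. The BIO dose is 2.5 µM in the sample labels and 10 µM in the series text and treatment protocol, and the myoseverin dose is 20 µM in the series text and 30 µM in the protocol. Because myotubes and BIO-free cellulates were not analysed here, differentiation, AraC, myoseverin and BIO cannot be told apart, nor can laminin, reversine, retinoic acid and time. Nothing in the sources states how many cultures stand behind an array.

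With 1 array per group there is no replicate check and no test of a difference. Values are log2 intensity minus the log2 75th percentile of the array, called scaled log2 signal below. A probe counts as measured on an array where the scanner software marked it well above background, which held for 45.7% of spots in neurogenic cellulates, 46.9% in BIO cellulates and 50.7% in myoblasts, with 0 spots saturated. The spread within an array was taken from probes spotted 10 times. From the spread of their spots, 95% of ratios between single spots are expected within 1.45-fold where BIO cellulates are set against myoblasts. The range is 1.36-fold where neurogenic cellulates are set against BIO cellulates, and 1.41-fold where they are set against myoblasts. This range covers spot error, treats the spots of both arrays as unpaired and leaves out variation between cultures. For kept spots of the Itgb1 probe, log2 differences between spots at the same array position had an SD of 0.07, 0.11 and 0.12 in that order. The range was built from SDs of 0.28, 0.22 and 0.25. It may therefore be too wide for ratios of spots at the same position. In bulk RNA, fewer cells of a type and less RNA per cell cannot be told apart.

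Markers of the cultures were checked first. Of 9 markers of differentiated muscle, 9 were measured on each array. The log2 of their summed levels, which the brightest markers dominate, was 11.81 in neurogenic cellulates, 12.20 in BIO cellulates and 8.07 in myoblasts. Of 5 myoblast markers, 4 were measured on each array, all but Myf5. Of 9 neuronal markers, 5 were measured in neurogenic cellulates, 5 in BIO cellulates and 4 in myoblasts. Nefl, Syp and Snap25 (a neurofilament and a pair of synaptic proteins) were measured on none. Nefm was measured in neurogenic cellulates alone and Dcx in BIO cellulates alone. The log2 of the summed neuronal levels was highest in myoblasts, at 3.45, beside 2.67 in neurogenic cellulates and 2.71 in BIO cellulates. Glial markers were measured for 4, 4 and 5 of 6 in neurogenic cellulates, BIO cellulates and myoblasts. The endothelial markers were at 0 of 3 measured on every array, and among epithelial markers only Krt8 was measured. Of 4 leukocyte markers with a probe, Itgal and Itgb2 were measured on all arrays, whereas Ptprc (CD45) and Itgam were measured on none.

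The 10 integrin subunits split by detection. Itga3, Itga5, Itga6, Itga7 and Itgb1 were measured on all 3 arrays. Itga1, Itga4 and Itgav were measured in myoblasts alone, Itgb5 in neurogenic cellulates and myoblasts, and Itgb3 on no array. The number of measured subunits was therefore 6 in neurogenic cellulates, 5 in BIO cellulates and 9 in myoblasts. The lowest signal well above background lay at a scaled log2 value of -2.57 in neurogenic cellulates, -2.73 in BIO cellulates and -3.73 in myoblasts, so a dim subunit could be measured in myoblasts at a level that would not have been on the cellulate arrays. Of the 18 probes, 7 were measured on all arrays and 7 on none.

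**Figure D1:**
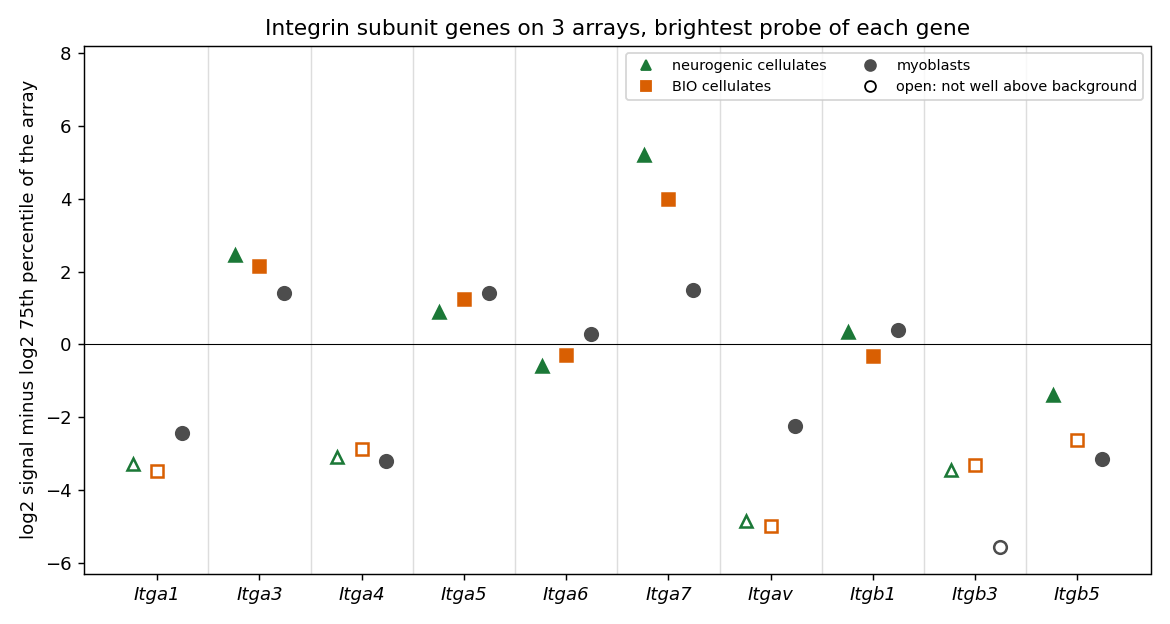
Scaled log2 signal (log2 signal minus the log2 75th percentile of the array, vertical axis) of the brightest probe of each of the 10 integrin subunits on the arrays of neurogenic cellulates, BIO cellulates and myoblasts; open symbols are not well above background. Itga7 stands at 5.20 in neurogenic cellulates, 4.00 in BIO cellulates and 1.48 in myoblasts, and Itga1, Itga4 and Itgav have a filled symbol in myoblasts alone.

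Itga7, the alpha subunit of the main laminin-binding integrin of muscle, had the widest range of the 10. Its single probe read 5707 intensity units in neurogenic cellulates, 1833 in BIO cellulates and 505 in myoblasts. On the scaled log2 scale these are 5.20, 4.00 and 1.48, so the order was neurogenic cellulates, BIO cellulates, myoblasts, with both steps beyond the spot range. The signal was 5.72-fold higher in BIO cellulates than in myoblasts (log2 ratio 2.52), 2.30-fold higher in neurogenic than in BIO cellulates (1.20) and 13.1-fold higher in neurogenic cellulates than in myoblasts (3.72). Among genes measured on both arrays, these ratios ranked 75 of 11185, 182 of 10877 and 61 of 10885 from the highest. Itga7 stayed at least 2-fold higher under all 8 alternative settings in each of the 3 comparisons. With 1 probe measured on all arrays, the settings on background filtering and on a gene's probes could not change its ratios. The deposited table holds the same intensities up to constants, so only the other scalings were informative. The lowest log2 ratios were 1.80, 1.19 and 2.99. The differentiated muscle markers were also higher in both cellulates than in myoblasts: 8 of 9 at least 2-fold in BIO cellulates (median log2 ratio 4.94) and 9 of 9 in neurogenic cellulates (4.52). Between neurogenic and BIO cellulates 0 of those 9 passed 2-fold (median -0.07), while Itga7 was 2.30-fold higher. The part of these markers in the Itga7 ratios was not tested.

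Profiles over the 3 arrays were compared for likeness as the distance between centred scaled log2 values, over 10666 genes measured on all arrays. The 5 genes nearest to Itga7 were Septin1 (distance 0.14), Sult5a1 (0.16), Rbpms (0.19), Sdsl (0.28) and Crym (0.32), against a range of 3.72 for Itga7 itself. The 5 nearest to Itgb1 were Nsmf, Gstm1, Lpin2, Clec2l and Pla2g4a, all within 0.02 of its profile, whose range was 0.72. Distances over 3 points describe these arrays only.

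The other laminin-binding alpha subunits, Itga3 and Itga6, varied less than Itga7 over the 3 arrays. For its brightest probe, Itga3 read 854 units in neurogenic cellulates, 509.8 in BIO cellulates and 482 in myoblasts, or 2.46, 2.15 and 1.41 as scaled log2 signal. The ratio was 1.66-fold for BIO cellulates against myoblasts (log2 ratio 0.74), beyond the spot range. Neurogenic cellulates were 1.24-fold above BIO cellulates (0.31, within the spot range) and 2.06-fold above myoblasts (1.04). The other probes of Itga3, measured on all arrays, did not share these ratios. For neurogenic cellulates against myoblasts they gave log2 ratios of -0.25 and 0.25, and for BIO cellulates against myoblasts -0.15 and 0.34. The 2.06-fold ratio thus rests on 1 of 3 probes. With each array scaled to its median, which lay near background, this ratio was 0.31 (log2) and that of BIO cellulates to myoblasts 0.02. Itga6 read 102 units in neurogenic cellulates, 93.0 in BIO cellulates and 219.8 in myoblasts, or -0.60, -0.31 and 0.28 as scaled log2 signal. It was 1.50-fold lower in BIO cellulates than in myoblasts and 1.85-fold lower in neurogenic cellulates than in myoblasts, both beyond the spot range, while the 1.23-fold gap between neurogenic and BIO cellulates lay within it. With the 75th percentile over probes measured on all arrays, or after normexp, the log2 ratio of Itga6 in BIO cellulates against myoblasts was -0.41 or -0.40, inside the spot range.

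**Figure D2:**
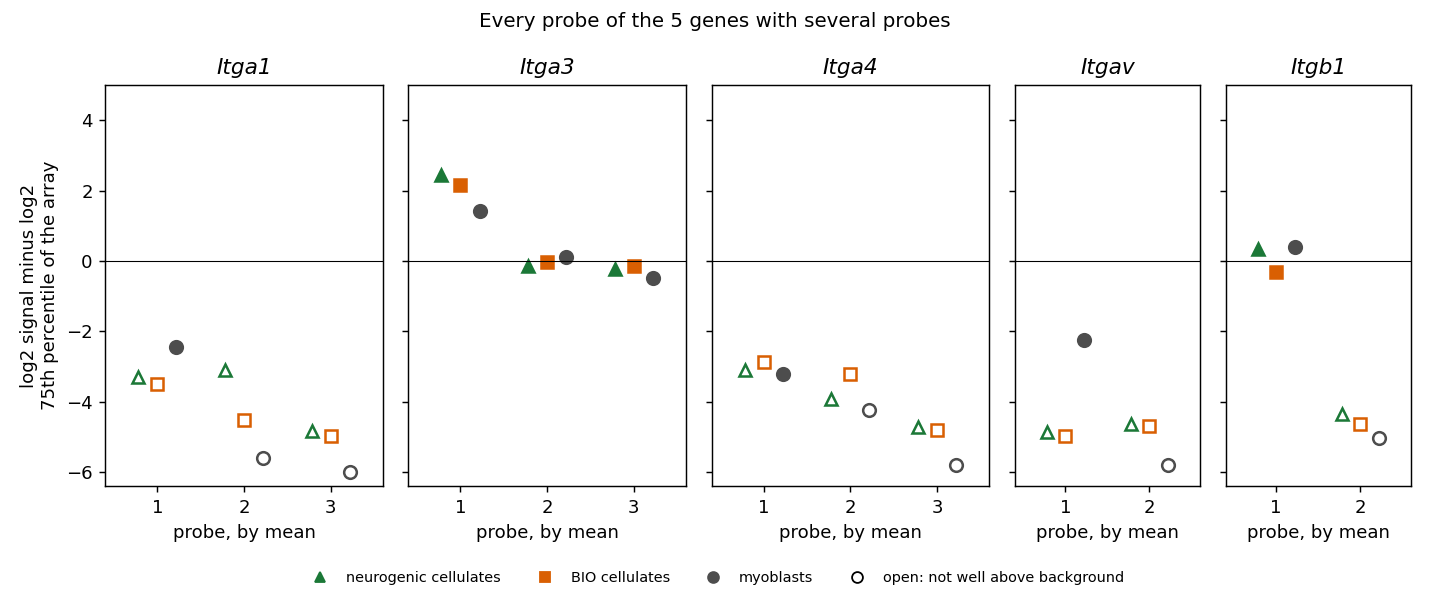
Scaled log2 signal of every probe of the 5 integrin genes with more than 1 probe, ordered by mean signal, in neurogenic cellulates, BIO cellulates and myoblasts; open symbols are not well above background. The brightest Itga3 probe runs from 2.46 in neurogenic cellulates to 1.41 in myoblasts, while the other Itga3 probes differ by 0.25 between those arrays, in opposite directions.

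The fibronectin receptor subunit Itga5 read 289 units in neurogenic cellulates, 271 in BIO cellulates and 481 in myoblasts, or 0.89, 1.24 and 1.41 as scaled log2 signal. Its ratio was 1.13-fold lower in BIO cellulates than in myoblasts and 1.27-fold lower in neurogenic than in BIO cellulates, both within the spot range. Neurogenic cellulates against myoblasts gave 1.43-fold lower (log2 ratio -0.52), just past the spot range, and between -1.25 and -0.19 under other settings. Itga4, whose dimer with Itgb1 binds fibronectin and VCAM-1, was dim: 18.2 units in neurogenic cellulates and 15.8 in BIO cellulates, neither well above background, and 19.7 in myoblasts, where 1 of its 3 probes was. No fold can be given for it.

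The collagen receptor subunit Itga1 read 33.3 units in myoblasts for its brightest probe, well above background, and was not well above background in neurogenic cellulates (15.8) or BIO cellulates (10.3). This allows a ratio of at least 1.09-fold lower in neurogenic cellulates and at least 1.22-fold lower in BIO cellulates than in myoblasts. Both bounds lie inside the spot range, so whether the ratios themselves pass it cannot be told. Itgav, the alpha subunit of the vitronectin receptors, read 5.35 units in neurogenic cellulates, 3.65 in BIO cellulates and 37.9 in myoblasts. Only the myoblast value was well above background. The ratio was at least 1.24-fold lower in neurogenic cellulates and at least 1.39-fold lower in BIO cellulates than in myoblasts. These bounds, also inside the spot range, are set by the cellulate arrays' lowest signals well above background. Without the background filter the log2 ratios were -2.61 and -2.72, where the software's error was 99.9% and 99.6% of the cellulate signals. With the 75th percentile taken over probes measured on all arrays, no fold can be given for Itga1 or Itgav in neurogenic cellulates against myoblasts. A second Itgav probe was not well above background on any array.

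Itgb1, the common beta subunit, was spotted 10 times on each array, and its brightest probe averaged 197 units in neurogenic cellulates, 92.0 in BIO cellulates and 238 in myoblasts. As scaled log2 signal these are 0.34 (SD over 9 kept spots 0.15), -0.32 (SD over 10 spots 0.17) and 0.40 (SD over 10 spots 0.15). BIO cellulates were thus lowest, with the neurogenic cellulates and myoblasts at nearly the same level under this scaling. The BIO cellulate signal was 1.65-fold lower than in myoblasts (log2 ratio -0.72), and all 10 pairs of spots at the same array position had that direction, between -0.82 and -0.61. Neurogenic cellulates were 1.58-fold higher than BIO cellulates (0.66), with 9 of 9 kept spot pairs in that direction. With the spot that the software marked as an outlier included, 9 of 10 pairs kept the direction and the mean log2 ratio was 0.59. Neurogenic cellulates against myoblasts gave -0.06, with 3 kept pairs above 0 and 6 below, and this ratio depended on the scaling: it was -0.79 under scaling to array medians and 0.27 with the 75th percentile over probes measured on all arrays. Spots of 1 array share 1 RNA sample, so their SD is technical. A second probe of Itgb1 was not well above background on any array.

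**Figure D3:**
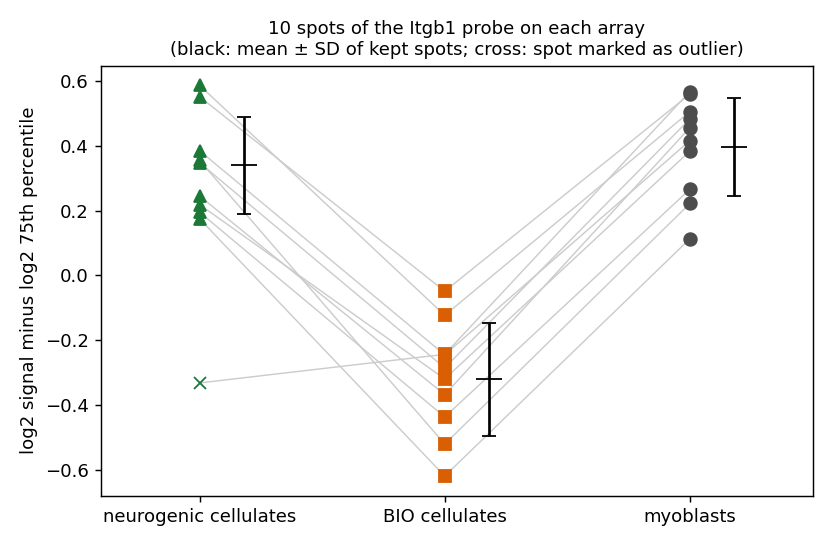
Scaled log2 signal of each of the 10 spots of the brightest Itgb1 probe in neurogenic cellulates, BIO cellulates and myoblasts; the cross is the spot marked as an outlier by the software and left out, black bars are the mean ± SD of kept spots, and grey lines join spots at the same array position. Kept spots average 0.34 in neurogenic cellulates, -0.32 in BIO cellulates and 0.40 in myoblasts.

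Itgb5, a beta subunit that pairs with Itgav, read 59.7 units in neurogenic cellulates (well above background), 18.7 in BIO cellulates (not) and 20.4 in myoblasts (well above background). The software's own error was between 14.6% and 25.2% of these signals, against about 10% for the bright subunits. Its scaled log2 signal was -1.38 in neurogenic cellulates and -3.15 in myoblasts, a 3.40-fold higher ratio (log2 1.77), which ranked 326 of 10885 genes. Against BIO cellulates the neurogenic ratio was at least 2.36-fold higher. Both were much smaller after normexp background correction, at log2 ratios of 0.31 and 0.42. That setting also added an offset of 50 to every signal, beside Itgb5 readings between 18.7 and 59.7 units. Between BIO cellulates and myoblasts no fold can be given. Itgb3, which with Itgav forms the other classic vitronectin receptor, read 14.4 units in neurogenic cellulates, 11.6 in BIO cellulates and 3.79 in myoblasts, none well above background.

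Promoter sequences, 250 bases before to 50 after the start, are shown for Itgb1, Itgb5 and Itga3, the subunits with the widest measured ratios among those with a RefSeq entry (build GRCm38.p6). Capitals mark E-boxes, the CANNTG motif bound by myogenic factors such as MyoD.
Itgb1, chr8:128685404-128685703, plus strand: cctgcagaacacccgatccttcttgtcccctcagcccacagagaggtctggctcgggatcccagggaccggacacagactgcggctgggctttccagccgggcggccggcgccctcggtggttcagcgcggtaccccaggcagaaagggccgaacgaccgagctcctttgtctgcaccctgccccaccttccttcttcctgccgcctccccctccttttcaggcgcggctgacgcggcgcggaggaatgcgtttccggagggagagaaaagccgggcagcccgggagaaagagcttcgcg
Itgb5, chr16:33829415-33829714, plus strand: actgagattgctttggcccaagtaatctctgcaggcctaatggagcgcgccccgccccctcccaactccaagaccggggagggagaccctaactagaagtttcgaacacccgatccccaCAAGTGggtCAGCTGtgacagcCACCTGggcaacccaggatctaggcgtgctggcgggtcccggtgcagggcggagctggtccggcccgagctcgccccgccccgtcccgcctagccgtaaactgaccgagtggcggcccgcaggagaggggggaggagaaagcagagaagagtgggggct
Itga3, chr11:95076665-95076964, minus strand: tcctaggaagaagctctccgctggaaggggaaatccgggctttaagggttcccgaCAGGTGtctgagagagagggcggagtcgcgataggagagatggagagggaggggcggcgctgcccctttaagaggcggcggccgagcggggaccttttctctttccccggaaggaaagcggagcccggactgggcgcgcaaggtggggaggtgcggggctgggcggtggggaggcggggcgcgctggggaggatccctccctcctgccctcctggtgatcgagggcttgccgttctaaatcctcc
Of the 10 genes, 7 had a promoter in the table, 8 promoters in all; Itga6, Itga7 and Itgb3 had none. The Itgb5 window holds 3 E-boxes, the first of 2 Itga3 windows, shown here, 1 and the Itgb1 window 0. Among all 32851 promoters of that length, 72.3% hold at least 1 CANNTG, so its presence is common. The GC box GGGCGG, sought on both strands, occurs 3 times in the Itgb5 window, 3 times in the Itga3 window shown and 1 time in that of Itgb1, and 35.7% of all promoters hold it. The TATA box TATAAA, which 13.6% of all promoters hold, was sought on both strands and not found in these windows. The same held for the nuclear receptor half-site AGGTCA, which 16.3% of all promoters hold. A match in letters is a description and no evidence of binding.

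Counted together, 1 of 9 subunits compared was at least 2-fold higher (Itga7) and 0 lower in BIO cellulates against myoblasts, where 11.2% of 12831 named genes were higher and 6.01% lower. In neurogenic against BIO cellulates, 2 of 6 were higher (Itga7, and Itgb5 as a bound) and 0 lower, where 4.16% of 12257 genes were higher and 1.79% lower. In neurogenic cellulates against myoblasts, 3 of 9 were higher (Itga7, Itgb5 and Itga3) and 0 lower, where 12.1% of 12857 genes were higher and 10% lower. With only genes measured on both arrays, the counts of higher subunits were 1 of 5, 1 of 5 and 3 of 6, with 0 lower in each. The shares of all genes were then 8.43% higher and 6.13% lower, 2.45% and 1.41%, and 9.35% and 11%. These comparisons share arrays. The median log2 ratio of the subunits was -0.17, 0.48 and -0.06 in that order, beside 0.00, -0.17 and -0.06 for all genes compared. Both medians and counts include bounds, and 4 of the 10 subunits were measured on neither array of the second comparison. Against myoblasts, Itga1, Itga4 and Itgav could not have counted as lower. Their myoblast signals lay below, or less than 2-fold above, the lowest signal well above background on each cellulate array. The same held for Itgb5 in BIO cellulates.

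**Figure D4:**
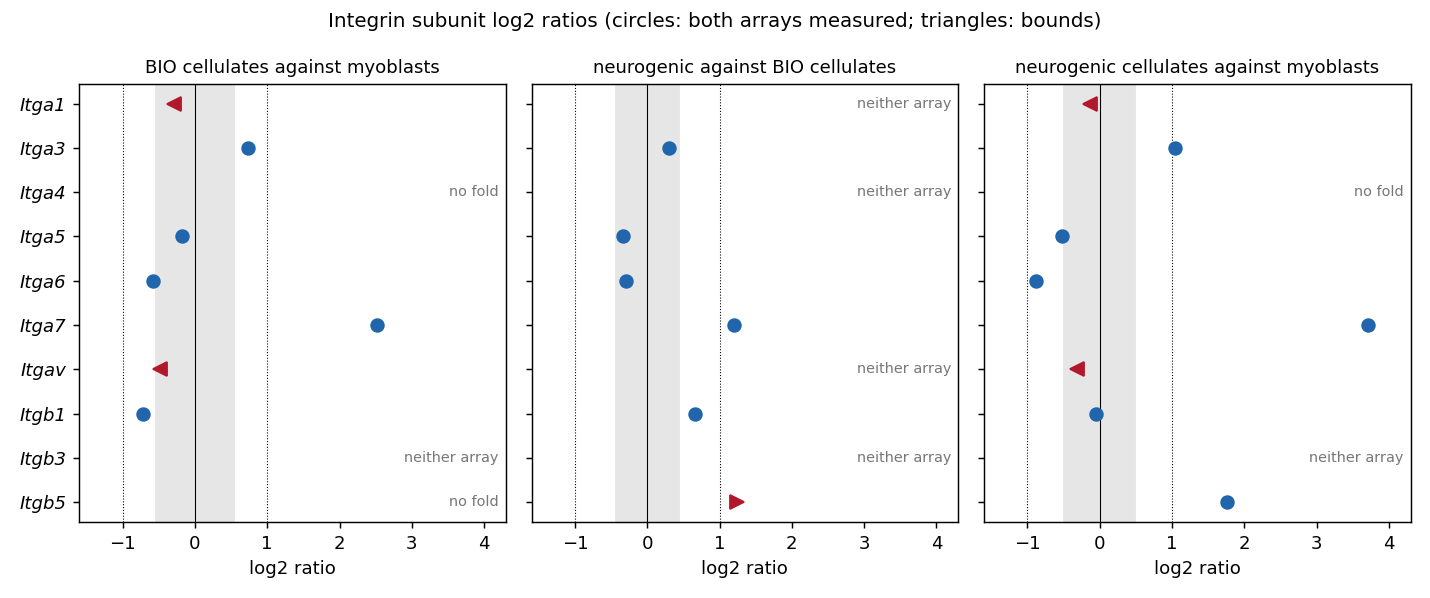
Log2 ratios of the integrin subunits in the 3 comparisons, with genes measured on both arrays as circles, bounds as triangles, the 95% range of single repeat spots shaded and 2-fold as dotted lines. Itga7 lies at 2.52 in the comparison of BIO cellulates with myoblasts, and neurogenic cellulates lie 1.20 above BIO cellulates and 3.72 above myoblasts.

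The alpha subunits here can pair with Itgb1. The ratios of the 4 measured on all arrays (Itga3, Itga5, Itga6 and Itga7) were therefore also set against the Itgb1 ratio of the same arrays. Scaling an array by a constant does not change this difference, whereas quantile normalization and normexp do. For BIO cellulates against myoblasts, the ratio exceeded that of Itgb1 9.41-fold for Itga7 and 2.74-fold for Itga3. Itga5 and Itga6 were lower there by less than Itgb1, so their ratios stood 1.46-fold and 1.10-fold above that of Itgb1. For neurogenic against BIO cellulates, the Itga7 ratio stood 1.45-fold above that of Itgb1. In this comparison Itga5 and Itga6 fell short of Itgb1 by 2.00-fold and 1.94-fold and Itga3 by 1.28-fold. For neurogenic cellulates against myoblasts, Itga7 exceeded Itgb1 13.7-fold and Itga3 2.14-fold, and Itga5 and Itga6 fell short by 1.37-fold and 1.77-fold. The Itga3 values are those of its brightest probe, which the other probes did not share. These are differences of ratios, not levels of one probe against another.

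The wider integrin pathway was read from lists chosen with earlier results known. Of 17 other integrin subunits, 14 had a named probe. In BIO cellulates against myoblasts, 3 of 9 compared were at least 2-fold higher, namely Itgb2l (at least 2.71-fold), Itgb6 (2.66-fold) and Itga2b (2.01-fold), and 0 were lower, where 11.2% of all genes were higher and 6.01% lower. Among those measured on both arrays, 2 of 8 were higher and 0 lower, where 8.43% and 6.13% of all genes were. In all lists, upward bounds against myoblasts passed 2-fold by rule where the myoblast signal lay below that array's lowest one well above background. Itgb2l was such a gene. In neurogenic against BIO cellulates (all genes 4.16% higher and 1.79% lower), Itga8 was 2.31-fold higher and Itga11, a collagen receptor subunit, was 2.47-fold lower among 10 compared. In neurogenic cellulates against myoblasts, 0 of 8 passed in either direction, where 12.1% of all genes were higher and 10% lower.

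Among 47 activators and adaptors that act on integrin tails, 45 had a probe. Itgb1bp2 (melusin), a muscle protein that binds the Itgb1 tail, was 16.6-fold higher in BIO cellulates and 9.63-fold higher in neurogenic cellulates than in myoblasts. In BIO cellulates against myoblasts, 4 of 40 were higher and 4 lower, beside 11.2% and 6.01% of all genes, with Tln2, a talin, 2.39-fold lower. In neurogenic against BIO cellulates, 2 of 41 were higher, the integrin inhibitor Sharpin (2.32-fold) and the endocytic adaptor Dab2 (2.25-fold), and 0 lower, beside 4.16% and 1.79% of all genes. In neurogenic cellulates against myoblasts, 6 of 41 were higher, including Sharpin at 4.10-fold, and 5 lower, including the actin crosslinker Flna (3.92-fold) and Actn4 (3.12-fold), beside 12.1% and 10% of all genes. Sharpin lay near background in myoblasts (scaled log2 signal -3.41) and BIO cellulates (-2.59), which limits its folds. Genes dim in both neurogenic cellulates and myoblasts had a median unfiltered log2 ratio of 1.14. Tln1, the widely expressed talin, was 1.87-fold lower there. The list medians were -0.39, -0.15 and -0.38.

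Of 35 matrix and cell-surface ligands, 34 had a probe. In BIO cellulates against myoblasts, 3 of 29 were higher and 6 lower (all genes 11.2% and 6.01%), with the matricellular protein Thbs1 3.43-fold lower and the basement membrane protein Nid1 2.51-fold lower. In neurogenic against BIO cellulates, 4 of 31 were higher and 6 lower (all genes 4.16% and 1.79%). Vcam1, the counter-receptor of Itga4 with Itgb1, was 6.85-fold higher there and 10.1-fold higher in neurogenic cellulates than in myoblasts, while Itga4 itself was not well above background in neurogenic cellulates. In neurogenic cellulates against myoblasts, 6 of 31 were higher and 10 lower (all genes 12.1% and 10%). Thbs1 was 10.4-fold lower, the laminin-linking Nid2 8.71-fold lower and Ccn1, a ligand of Itgav integrins, 5.27-fold lower. Lamb3, a laminin chain, was 4.68-fold higher, from a myoblast signal near background (scaled log2 signal -3.09). Fn1, the ligand of Itga5, was 2.37-fold lower. The list medians were -0.33, -0.09 and -0.45.

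Of 15 associated membrane proteins, 0 of 13 compared were higher in BIO cellulates than in myoblasts and 1 was lower, the heparan sulfate proteoglycan Sdc1 (2.50-fold), where all genes had 11.2% higher and 6.01% lower. In neurogenic against BIO cellulates, 3 of 15 were higher: Bsg (at least 3.62-fold) and the tetraspanins Cd9 (at least 2.72-fold) and Cd82 (2.10-fold). The muscle caveolin Cav3 was 2.66-fold lower there, and all genes had 4.16% higher and 1.79% lower. In neurogenic cellulates against myoblasts, 2 of 15 were higher and 2 lower, near the 12.1% and 10% of all genes, with Sdc1 2.99-fold and Cav1 2.79-fold lower. Both higher ones were bounds. Among the 13 measured on both of these arrays, 0 were higher and 2 lower, beside 9.35% and 11% of all genes.

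**Figure D5:**
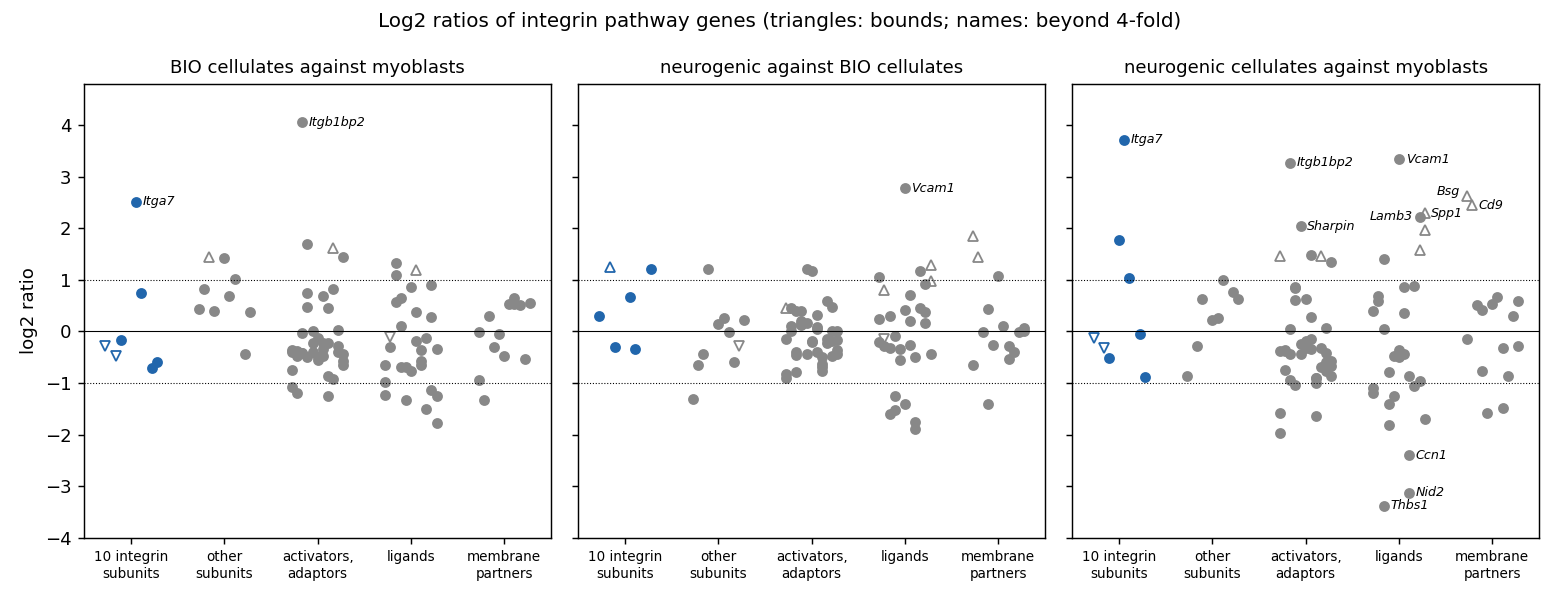
Log2 ratios of the 10 integrin subunits and of the 4 lists of other subunits, activators and adaptors, ligands and associated membrane proteins in the 3 comparisons; filled circles are measured on both arrays, open triangles are bounds, and genes for which no fold can be given are left out. The dotted lines mark 2-fold, and Itga7 and Vcam1 lie among the highest for neurogenic cellulates against myoblasts, at 3.72 and 3.34.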

How the data were processed

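The data were 3 one-colour Agilent mouse arrays on 1 slide, scanned on 1 day. Per the file headers, the scans of array design 014868 (build mm9) were read with Agilent Feature Extraction 10.7.3.1, which gave a background-subtracted linear intensity per spot. Per the labels, each Cy3 target was made from 200 ng of RNA. The authors' deposited table is on the log2 scale; its columns match the log2 intensities after adding 0.23 (neurogenic cellulates), 0.67 (BIO cellulates) or 0.00 (myoblasts), and their medians are 7.88, 7.77 and 7.42. It is not centred by gene, and why the constants were chosen is not stated. Columns of other samples numbered 0.

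Control and outlier-marked spots were dropped, and log2 values of a probe's spots were averaged. Each array was scaled by subtracting the log2 75th percentile of its non-control intensities (156, 115 and 181 for neurogenic cellulates, BIO cellulates and myoblasts). Of 41174 probes, 26918 were named by unversioned accession through the RefSeq gene table of GRCm38.p6; 14256 were not. A gene took its probe with the highest mean. Where a gene was well above background on 1 of 2 arrays, the fold is a lower bound against the dim probe's own signal or, if higher, the array's lowest signal well above background. Bounds below 1-fold give no fold and count as 0 in medians. Counts leave out genes with probes that disagree on background. The number of arrays limits the precision, and no p-values were computed. The normexp alternative used median spot signals (limma 3.58.1, R 4.3.3, offset 50) in place of mean signals; the other steps used Python 3.11.15 with pandas 2.3.3 and numpy 2.4.6. The calculation of ratios and bounds was tested on simulated data. All 10 subunits are named; of each other list, at most the 3 highest and 3 lowest genes past 2-fold per comparison, plus partners of a subunit; 1 gene of these is not reported here. The subunits, lists and settings were chosen with earlier results of these data known.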

Additional observations from a re-analysis of the deposited data

How the results depend on the processing

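Of 48 recalculated medians and counts of the subunits, 38 stayed close to the reported value and 10 moved. Of 184 single-gene values, 142 stayed close and 42 moved. Some of these values could not move. For single-probe subunits measured on both arrays, the settings on background filtering and on a gene's probes could not change the ratio. The deposited table holds the same intensities up to constants. The totals are thus no measure of stability. Scaling each array to its median shifted all log2 ratios by -0.72 for BIO cellulates against myoblasts, -0.01 for neurogenic against BIO cellulates and -0.73 for neurogenic cellulates against myoblasts. It gave a median of -0.89 with 5 subunits past 2-fold in the first of these (Itga7 higher; Itga1, Itga6, Itgav and Itgb1 lower) and -0.79 with 5 in the third (Itga7 and Itgb5 higher; Itga5, Itga6 and Itgav lower). The array medians lay near background, at 24.4, 17.9 and 17.1 units in neurogenic cellulates, BIO cellulates and myoblasts. The lowest signals well above background there were 26.2, 17.3 and 13.6 units, so scaling to the median leans on dim spots. With no filter on dim probes, 4 and 5 subunits passed for BIO and for neurogenic cellulates against myoblasts. The median of neurogenic against BIO cellulates was then 0.15. There, 1 subunit, Itga7, passed after normexp and 1 when genes had to be measured on both arrays; that filter turned the median of neurogenic cellulates against myoblasts to 0.49. With no filter that median was 0.02, and that of BIO cellulates against myoblasts 0.08, both also of turned sign. Taking the 75th percentile over probes detected on all arrays shifted ratios by 0.17, 0.15 and 0.33. The normexp setting combined background correction, an added offset of 50 and quantile normalization. The part of each in the changes was not tested. No paired analysis was possible because each group had 1 array. Signals near background limit Itga1, Itga4, Itgav, Itgb3 and Itgb5, and in the wider lists genes such as Sharpin and Lamb3.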
